A study of Mus musculus with 8 samples.

Results

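The angiopoietins Angpt1 and Angpt2, their receptor Tek and the angiopoietin-like genes Angptl1, Angptl2, Angptl4, Angptl6 and Angptl7 were followed in mouse embryonic fibroblasts, a culture grown from mouse embryos, of 2 genotypes with and without growth hormone (GH). A gene was represented by every probe set, a group of short probes on the array, that the platform annotation maps to it alone. This gave 12 probe sets for 7 of the 8 genes, out of 45037 probe sets and 18193 named genes in all. No probe set was named for Angptl2 in the annotation used here, and Angptl2 was not analysed here. The family was chosen by the measured gain of Angptl1 in cells lacking Stat5a and Stat5b, so the differences of Angptl1 between genotypes are given as a description and were not tested. The other members were taken as relatives of it.

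Total RNA was measured on 8 Affymetrix whole-genome mouse arrays, in 4 groups of 2. Wild type (control) and Stat5a/b-null cells were each measured in 2 states, untreated and treated with GH. All were of strain C57BL/6, used at passage 13 and starved for 5 hours, after which GH at 1 ug/ml was present or absent for 2 hours. The titles number the arrays of a group Bio-2 and Bio-3 but leave unstated whether separate embryos or cultures lay behind them, and the p-values then measure only array-to-array spread, which may be technical. The labels used here do not describe how the alleles were made or how many embryos gave each genotype. Values are on the log2 scale, where a difference of 1 is a doubling, and SE is limma's standard error of a difference.

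Angiopoietins are secreted proteins that bind TEK, also called TIE2, a receptor tyrosine kinase of endothelial cells. ANGPT1, made by stromal and perivascular cells, activates the receptor and steadies vessels, whereas ANGPT2 can act against it and loosens them. The angiopoietin-like proteins share the coiled-coil and fibrinogen-like build of the angiopoietins but do not bind TEK. ANGPTL4 is best known as an inhibitor of lipoprotein lipase, and its gene responds to fatty acids through PPAR factors, to glucocorticoids and to low oxygen.

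For Angptl1, the gene on which the choice of this family rests, the bases before the start site can be shown, and Angptl7, another member with a higher level in null cells, stands beside it. Both are the 250 bases before the RefSeq start site in GRCm38.p6, written on the gene's own strand, at chr1:156838773-156839022 (plus strand) and chr4:148500463-148500712 (minus strand). Capitals mark TGACGT, the core bound by CREB and ATF factors, which was chosen after the sequences were seen.

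Angptl1: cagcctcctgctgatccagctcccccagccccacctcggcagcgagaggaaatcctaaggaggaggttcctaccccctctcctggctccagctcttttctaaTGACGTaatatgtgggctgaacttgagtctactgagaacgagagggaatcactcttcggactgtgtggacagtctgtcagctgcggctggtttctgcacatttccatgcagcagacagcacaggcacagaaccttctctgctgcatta
Angptl7: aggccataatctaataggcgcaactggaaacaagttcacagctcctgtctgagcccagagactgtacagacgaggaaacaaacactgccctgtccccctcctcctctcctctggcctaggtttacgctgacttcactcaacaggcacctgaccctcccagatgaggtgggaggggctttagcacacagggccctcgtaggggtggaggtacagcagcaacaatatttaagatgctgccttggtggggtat

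The STAT motif TTCNNNGAA, which reads the same on both strands, was searched in these windows and in those of Tek, Angptl2 and Angptl6, and no match was found in the 5. It was present in 7.02% of the 32851 RefSeq windows of the same length. TGACGT, read on both strands, was present in Angptl1 and, on the other strand, in Angptl2, and in 6.47% of all windows. These are matches of letters and do not show binding. Angpt1, Angpt2 and Angptl4 had no entry in the promoter table used.

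The arrays of the genotypes were first set against their labels. Both probe sets of Stat5a, and 1 of the 2 of Stat5b, stood between 7.13 and 8.48 on the control arrays and between 4.32 and 5.84 on the null arrays. The other Stat5b probe set stood at 7.89 to 8.06 on control and 6.93 to 7.33 on null arrays. Replicate arrays correlated at 0.997 to 0.998 over all probe sets. A level below 6.097, the lower quartile over the genes' values on the arrays, is called dim here. No detection call came with the values, so a dim level was not set apart from background, and no size is given for a change against a dim group.

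Fibroblast markers were bright in both genotypes, with a mean of the 16 markers between 12.31 and 12.39 on the control arrays and between 13.33 and 13.44 on the null arrays. Within this list the proteoglycan genes Lum (4.32 ± 0.10 SE) and Dcn (3.57 ± 0.09 SE) were higher in null cells without GH. Over the 16, the median log2 difference between genotypes was only 0.09 without GH and 0.06 with GH. Without GH 7 were higher and 3 lower, and with GH 7 higher and 2 lower, where 44.8% and 43.0% of all genes were called. The mean of the 14 macrophage and leukocyte markers lay between 10.43 and 10.71 on control arrays and between 6.53 and 6.66 on null arrays. With and without GH, all 14 were lower in null cells, and 4 of them without GH and 7 with GH were dim in null cells. Fewer cells of a type and less RNA per cell cannot be told apart in such bulk RNA. Of 16 endothelial markers 5 were dim in each control group and in null cells without GH, and 6 in null cells with GH. Among the defining genes Pecam1 (4.79 to 4.93 over the group means) and Vwf (4.54 to 5.27) were dim in every group, whereas Cdh5 (6.23 to 6.60) lay just above the dim level and Kdr (8.20 to 8.41) well above it in every group. These marker levels move with genotype, as do the members below, and their part in the members' differences was not tested.

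**Figure D1:**
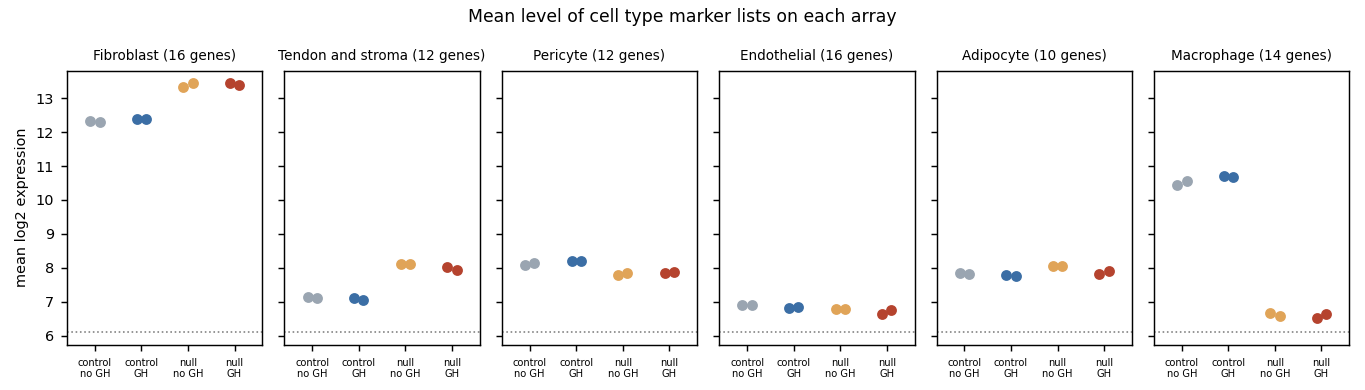
Mean log2 level of 6 cell type marker lists (y axis) on each of the 8 arrays (points), by group (x axis), with the dim level of 6.097 as a dotted line. Macrophage markers sit between 10.43 and 10.71 on the control arrays and between 6.53 and 6.66 on the null arrays, while fibroblast markers are bright on all 8.

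Angptl1, which encodes a secreted protein reported to restrain vessel growth, had a bright signal on the null arrays alone. Probe set 1455224_at read 4.31 and 4.91 in control cells without GH, 4.44 and 4.60 in control cells with GH, 11.26 and 11.19 in null cells without GH and 11.09 and 11.13 in null cells with GH. Probe set 1421421_at read 5.61 and 5.31, 5.19 and 5.59, 9.74 and 9.84, and 9.58 and 9.56 in the same order. In both, all 4 null arrays lay above all 4 control arrays, and all 4 control arrays were dim. The remaining probe set, 1446396_at, differed from these: it stood between 5.92 and 6.24 on control and between 6.15 and 6.36 on null arrays. The genotypes overlapped without GH. With GH they did not, at 6.02 and 6.24 in control and 6.33 and 6.31 in null cells. It lay close to the dim level on all 8 arrays.

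No difference of Angptl1 with GH passed the test. In null cells, where it was bright, the difference with GH was -0.11 ± 0.16 (SE) for 1455224_at (limma adjusted p = 0.74) and -0.22 ± 0.14 (SE) for 1421421_at (limma adjusted p = 0.363). In both probe sets the 2 GH arrays lay below the 2 arrays without GH; the difference was smaller than its SE for 1455224_at and larger than its SE for 1421421_at. In control cells all 3 probe sets missed the threshold (limma adjusted p from 0.964 to 0.974).

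**Figure D2:**
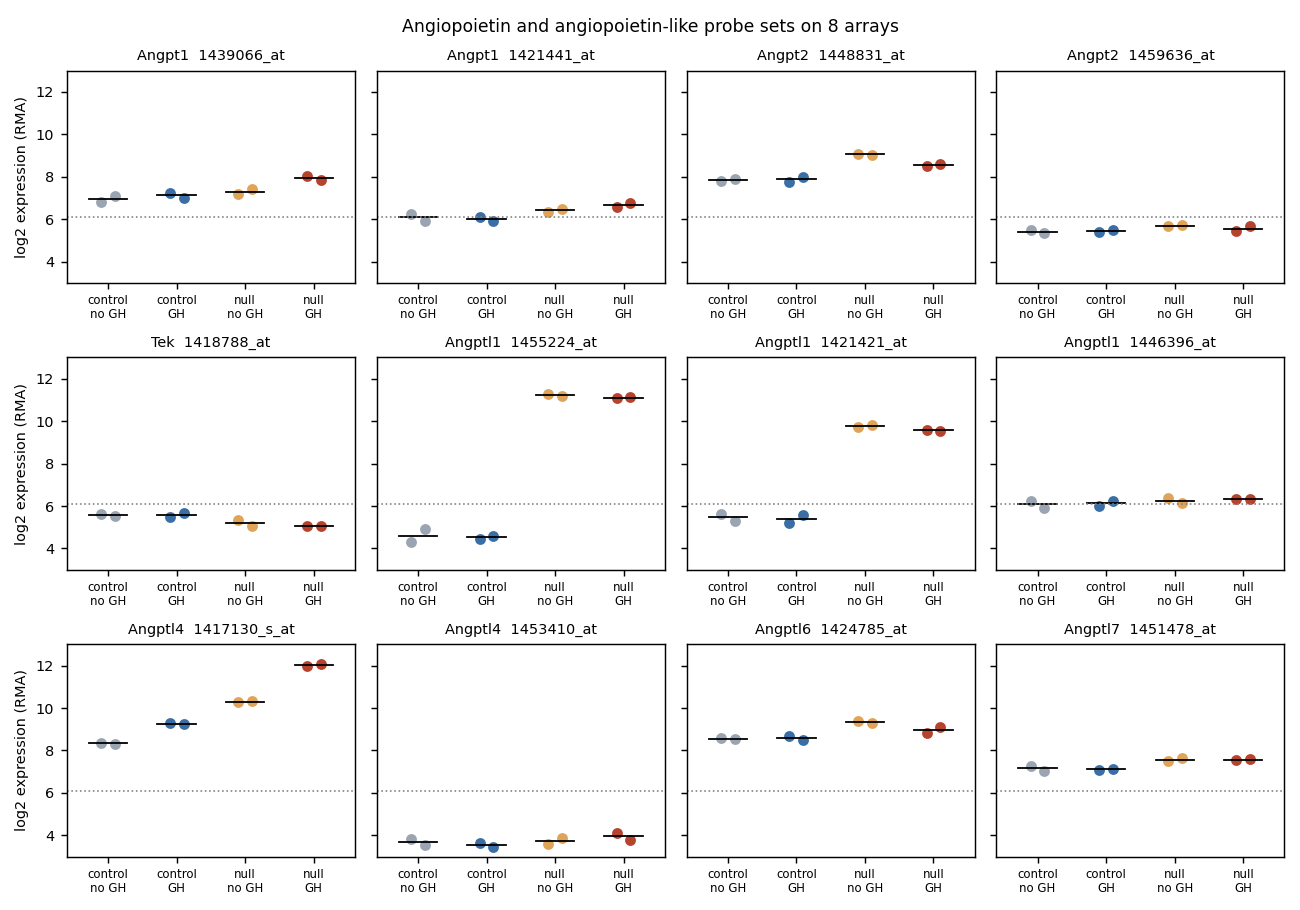
Log2 expression (y axis) of the 12 probe sets on the 8 arrays (points) in 4 groups (x axis), with group means as bars and the dim level of 6.097 as a dotted line. Angptl1 is bright on the null arrays alone in 2 of its 3 probe sets, and the group means of Angptl4 1417130_s_at step from 8.33 through 9.26 and 10.30 to 12.03.

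Angptl4 was higher in null cells, rose with GH in both genotypes, and rose more in null cells. Probe set 1417130_s_at read 8.35 and 8.31 in control cells without GH, 9.28 and 9.24 in control cells with GH, 10.29 and 10.31 in null cells without GH and 11.97 and 12.09 in null cells with GH. No 2 of the 4 groups overlapped. The suffix s marks a probe set whose probes can match more than 1 transcript. The other probe set, 1453410_at, was dim on all 8 arrays (3.46 to 4.10). It passed the test for genotype with GH (limma adjusted p = 0.0446), a call lost without control replicate 3 with GH (0.223) or null replicate 2 with GH (0.339).

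Without GH, Angptl4 was 3.92-fold higher in null than in control cells (log2 difference 1.97 ± 0.09 SE, limma adjusted p = 1.18e-08). With GH it was 6.81-fold higher (2.77 ± 0.09 SE, limma adjusted p = 6.64e-10). GH raised it 1.90-fold in control cells (0.93 ± 0.09 SE, limma adjusted p = 0.000126) and 3.31-fold in null cells (1.73 ± 0.09 SE, limma adjusted p = 4.56e-07). The GH effect was larger in null cells by 0.80 ± 0.13 (SE) on the log2 scale (interaction, limma adjusted p = 0.00387). Under every refit these 5 differences kept their direction and passed the threshold, the interaction ranging from 0.74 to 0.86 with adjusted p from 0.000951 to 0.0274.

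Of 19 STAT5 and GH feedback genes, the interaction was called for 6, with 3 positive and 3 negative (median 0.01). Over all genes 4.55% were called for it, 2.49% positive and 2.06% negative. Bcl6, Jak2 and Myc were positive, and Cish, Socs2 and Socs3 were negative. A positive sign can come from a larger rise with GH in null cells or from a fall in control cells. Which of these held for Bcl6, Jak2 and Myc is not given here. Cish, Socs2 and Socs3, inhibitors that STAT5 and STAT3 induce, rose with GH in control cells, Cish by 1.95 ± 0.11 (SE), Socs2 by 1.40 ± 0.10 (SE) and Socs3 by 2.19 ± 0.11 (SE). In null cells their differences were 0.06, 0.24 and -0.02, none past the test. The interaction was -1.88 ± 0.16 (SE) for Cish (limma adjusted p = 5.45e-05), -1.17 ± 0.15 (SE) for Socs2 (limma adjusted p = 0.000765) and -2.21 ± 0.16 (SE) for Socs3 (limma adjusted p = 1.74e-05). Macrophage markers other than Cd14 did not pass the test for GH in either genotype. Cd14 rose with GH by 1.79 ± 0.11 (SE) in control and 0.61 ± 0.11 (SE) in null cells.

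Angpt2 was higher in null cells and fell with GH there. Probe set 1448831_at read 7.79 and 7.91 in control cells without GH, 7.77 and 7.98 in control cells with GH, 9.09 and 9.05 in null cells without GH and 8.52 and 8.61 in null cells with GH. All null arrays lay above all control arrays, and in null cells the GH arrays lay below those without it. The genotype difference was 2.32-fold without GH (1.22 ± 0.10 SE, limma adjusted p = 1.78e-06) and 1.61-fold with GH (0.69 ± 0.10 SE, limma adjusted p = 0.000193). In control cells the difference with GH was 0.03 ± 0.10 (SE, limma adjusted p = 0.988).

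In null cells GH lowered Angpt2 by a log2 difference of -0.50 ± 0.10 (SE, limma adjusted p = 0.00806). That call was lost without null replicate 2 without GH (-0.48, limma adjusted p = 0.0629) and without null replicate 2 with GH (-0.46, limma adjusted p = 0.0875). The GH effects of the genotypes differed by -0.53 ± 0.15 (SE), which missed the threshold (limma adjusted p = 0.0615). It passed when dim probe sets were left out (0.0407) and, narrowly, with a prior that follows the mean level. The other Angpt2 probe set, 1459636_at, was dim on all 8 arrays, between 5.35 and 5.71, and passed no test. Its genotype difference without GH passed when arrays were centred on their medians (0.0336) or quantile normalized again (0.0412).

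Angpt1, the activating ligand, stood highest in null cells with GH. Probe set 1439066_at read 6.79 and 7.08 in control cells without GH, 7.25 and 6.996 in control cells with GH, 7.19 and 7.40 in null cells without GH and 8.02 and 7.85 in null cells with GH. Both null arrays with GH lay above the other 6 arrays, while the remaining 3 groups lay close together. With GH the genotypes differed 1.76-fold (0.81 ± 0.13 SE, limma adjusted p = 0.00036). The second probe set, 1421441_at, was higher in null cells with GH too (limma adjusted p = 0.00126), at 6.57 and 6.77 against a dim control level. Without GH it missed the threshold (6.35 and 6.48 in null cells, limma adjusted p = 0.0698), and passed when arrays were centred on their medians (0.0393), quantile normalized again (0.0425) or without control replicate 2 without GH (0.0142).

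Without GH the genotype difference of Angpt1 was 0.36 ± 0.13 (SE) and barely passed (limma adjusted p = 0.0462). It was lost without control replicate 2 without GH (0.22, limma adjusted p = 0.277), without null replicate 3 without GH (0.26, limma adjusted p = 0.263) and without either null array with GH (0.36, limma adjusted p = 0.0633 for each). It was also lost when only these 2 groups were fitted (0.0561). In null cells GH raised Angpt1 by 0.64 ± 0.13 (SE, limma adjusted p = 0.00837) in probe set 1439066_at. Probe set 1421441_at, not dim in either null group, gave 0.26 ± 0.13 (SE) for the same comparison and missed the threshold (limma adjusted p = 0.25). The call for 1439066_at was lost without null replicate 2 without GH (0.53, limma adjusted p = 0.0935) and without null replicate 2 with GH (0.55, limma adjusted p = 0.108). In control cells the difference was 0.19 ± 0.13 (SE, limma adjusted p = 0.792), and the interaction of 0.45 ± 0.19 (SE) missed the threshold (limma adjusted p = 0.241).

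Tek, the receptor, was dim on all 8 arrays. It read 5.62 and 5.52 in control cells without GH, 5.49 and 5.67 with GH, 5.34 and 5.04 in null cells without GH and 5.06 and 5.06 with GH. All null arrays lay below all control arrays, and both genotype tests passed (limma adjusted p = 0.0213 without GH and 0.00326 with GH), but no size is given for levels not set apart from background. The call without GH was lost without control replicate 2 without GH (0.0961) or null replicate 3 without GH (0.194). Tie1, the related receptor, was dim in every group as well (group means 4.98 to 5.25).

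Angptl6, which encodes a factor known for effects on vessels and energy balance, was higher in null cells. It read 8.60 and 8.52 in control cells without GH, 8.66 and 8.47 with GH, 9.38 and 9.31 in null cells without GH and 8.81 and 9.12 with GH. The genotypes did not overlap in either state, and the 2 null arrays with GH lay further apart than those of any other group. The difference was 0.79 ± 0.12 (SE, limma adjusted p = 0.000199) without GH and 0.40 ± 0.12 (SE, limma adjusted p = 0.0189) with GH. The latter call was lost without control replicate 3 with GH (0.30, limma adjusted p = 0.15) and without null replicate 3 with GH (0.24, limma adjusted p = 0.203). GH in null cells gave -0.38 ± 0.12 (SE, limma adjusted p = 0.0636), which passed in 5 of 15 refits, among them the one without null replicate 3 with GH (-0.54, limma adjusted p = 0.0375).

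Angptl7, a secreted protein known from the cornea and the trabecular meshwork of the eye, showed a small genotype difference and no detected response to GH. It read 7.29 and 7.03 in control cells without GH, 7.07 and 7.15 with GH, 7.52 and 7.62 in null cells without GH and 7.54 and 7.59 with GH. All null arrays lay above all control arrays. The difference was 0.41 ± 0.11 (SE, limma adjusted p = 0.00813) without GH and 0.45 ± 0.11 (SE, limma adjusted p = 0.00479) with GH. Without control replicate 3 or null replicate 3, both without GH, the first missed the threshold (0.29 and 0.36, limma adjusted p = 0.0762 and 0.0623). GH gave -0.05 ± 0.11 (SE) in control and -0.01 ± 0.11 (SE) in null cells.

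**Figure D3:**
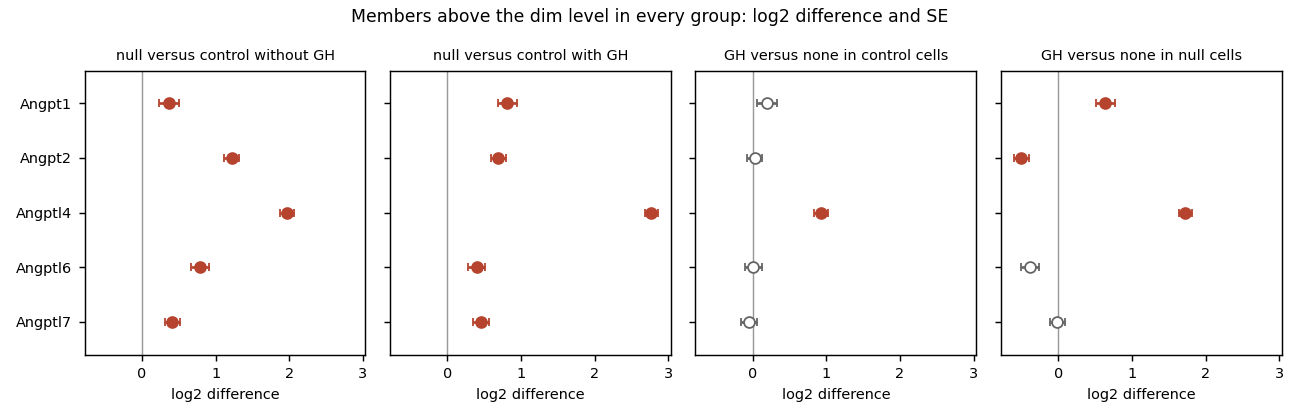
Log2 difference (x axis, bars are limma's SE) in 4 comparisons (panels) for the probe sets of Angpt1, Angpt2, Angptl4, Angptl6 and Angptl7 that were above the dim level in all 4 groups. Filled points passed an adjusted p of 0.05: all 5 genes in both genotype panels, Angptl4 alone for GH in control cells, and Angpt1, Angpt2 and Angptl4 for GH in null cells.

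Counted over probe sets other than those of Angptl1, 6 of 9 differed between genotypes without GH, 5 higher and 1 lower in null cells, where 38.6% of all probe sets were called, 19.0% higher and 19.6% lower. With GH 8 of 9 differed, 7 higher and 1 lower, against 37.3% of all, 19.6% higher and 17.7% lower. The 1 lower in each GH state was Tek, dim on all 8 arrays. The 7 higher with GH include Angptl4 1453410_at, also dim on all 8 arrays, and count Angpt1 and Angptl4 with 2 probe sets each. GH in control cells raised 1 of 12 and lowered none, where 1.79% of all were called, 1.23% higher and 0.557% lower. GH in null cells raised 2 and lowered 1 of 12, where 10.8% of all were called, 7.37% higher and 3.46% lower. The interaction was called for 1 of 12, a positive one, where 5.48% of all were called, 4.05% positive and 1.44% negative. With so large a background for genotype, a call there is common. With the probe set of the highest mean for each gene, the median log2 difference of the 6 genes was 0.60 without GH and 0.57 with GH, against 0.03 and -0.02 over all genes. Tek, with its dim levels, is among the 6. The 4 comparisons between groups share arrays: each group serves in 1 comparison of genotype and 1 of GH.

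Other family genes on the array were looked at in the same way. Angpt4, another TEK ligand, was higher in null cells in both of its probe sets. Probe set 1455427_at read 8.69 and 8.64 in control cells without GH, 8.62 and 8.62 with GH, 9.87 and 9.97 in null cells without GH and 9.69 and 9.88 with GH. The difference was 1.26 ± 0.10 (SE) without GH and 1.17 ± 0.10 (SE) with GH, and 1.69 and 1.46 for probe set 1450325_at. Neither moved with GH past the threshold. Angptl8 was dim in every group (4.83 to 5.15).

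Other genes of TEK signalling went both ways. Of 23 other genes of the pathway, 7 were higher and 7 lower in null cells without GH, where 44.8% of all genes were called, 23.1% higher and 21.6% lower (median 0.02, against 0.03 over all genes). With GH 8 were higher and 6 lower, where 43.0% of all genes were called, 21.1% higher and 21.9% lower. Foxo1, a transcription factor that AKT switches off downstream of TEK, was higher (1.35 ± 0.10 SE without GH), as was the adaptor gene Shc1 (1.29 ± 0.10 SE), while the phosphatase gene Ptpn11 was lower (-0.90 ± 0.09 SE). GH changed 2 of the 23 in control cells, Foxo1 (0.49 ± 0.10 SE) and Foxo3 (0.56 ± 0.12 SE), where 2.2% of all genes were called, 1.5% higher and 0.698% lower. In null cells 5 rose and 2 fell with GH, where 10.1% of all genes were called, 4.84% higher and 5.24% lower. Among them the shear-stress factor gene Klf2 fell (-0.65 ± 0.11 SE) and the integrin gene Itga5 rose (0.63 ± 0.13 SE). The interaction was called for 1 of the 23, a negative one, where 4.55% of all genes were called, 2.49% positive and 2.06% negative.

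Of 20 genes tied to ANGPTL proteins and lipoprotein lipase, 5 were higher and 5 lower in null cells without GH (median -0.09), near the 44.8% of all genes called there. Lpl, the lipase that ANGPTL4 inhibits, was higher by 2.26 ± 0.09 (SE) without GH and by 2.17 ± 0.09 (SE) with GH. GH gave -0.10 ± 0.09 (SE) for Lpl in control and -0.19 ± 0.09 (SE) in null cells, neither past the test. The proprotein convertase gene Pcsk6 was lower (-0.97 ± 0.11 SE without GH). With GH 2 of the 20 were higher and 6 lower, where 43.0% of all genes were called. By limma, GH changed none of the 20 in control cells, with 2 at an unadjusted p under 0.05. In null cells it changed 2, the receptor genes Lrp1 (0.61 ± 0.11 SE) and Vldlr (-0.48 ± 0.10 SE). Over all genes 2.2% were called in control and 10.1% in null cells, so both counts lie near the share over all genes.

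Of 10 genes for reported binding partners of ANGPTL proteins, null cells without GH had 7 lower and 1 higher than control cells, and null cells with GH had 5 lower and 2 higher (medians -0.48 and -0.41). Of all genes 21.6% were lower and 23.1% higher without GH, and 21.9% and 21.1% with GH. The integrin gene Itga1 (-2.60 ± 0.14 SE) and Mcam (-1.62 ± 0.10 SE) were lower without GH. Pirb, a receptor of myeloid cells, stood at 7.38 in control cells without GH and was dim in null cells. By limma, GH changed none of the 10 in control cells, with 1 at an unadjusted p under 0.05. In null cells it raised 2, the proteoglycan gene Sdc4 (0.56 ± 0.09 SE) and Itga5. Over all genes 2.2% were called for GH in control cells and 10.1% in null cells, 4.84% higher in the latter.

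The 3 regulatory inputs known for Angptl4 were set beside it. Of 28 PPAR factors and fatty acid response genes, limma called none for GH in control cells, with 1 at an unadjusted p under 0.05. Over all genes 2.2% were called there. In null cells 5 fell and none rose (median -0.20, against -0.07 over all genes), where 5.24% of all genes fell and 4.84% rose. Pparg itself fell in null cells (-0.80 ± 0.09 SE), with an interaction of -0.74 ± 0.13 (SE, limma adjusted p = 0.00586). Plin2, a lipid droplet gene, was lower in null cells without GH (-1.37 ± 0.10 SE). In that comparison 8 of the 28 were higher and 7 lower, and 44.8% of all genes were called.

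Of 18 glucocorticoid response genes, GH raised 4 and lowered 7 in null cells, and raised 1 and lowered 1 in control cells. Of all genes 4.84% rose and 5.24% fell in null cells, and 2.2% were called in control cells. Cebpd, which inflammatory signals also induce, rose in null cells (1.23 ± 0.10 SE), with an interaction of 1.05 ± 0.14 (SE, limma adjusted p = 0.00125). Dusp1 (-1.03 ± 0.09 SE) and Ddit4 (-0.63 ± 0.09 SE) fell. Between genotypes 8 of the 18 were higher and 2 lower without GH, and 10 higher and 4 lower with GH, where 44.8% and 43.0% of all genes were called. Of 24 hypoxia response genes, GH raised 1 and lowered 2 in either genotype, where 2.2% of all genes were called in control and 10.1% in null cells. Ndrg1 rose in control (0.76 ± 0.10 SE) and null cells (0.45 ± 0.10 SE), whereas Ankrd37 fell in both (-0.77 ± 0.11 SE and -0.94 ± 0.11 SE). Between genotypes 7 of the 24 were higher and 7 lower in either GH state, against the same 44.8% and 43.0%.

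Of 45 other angiogenesis genes, 16 were higher and 16 lower in null cells without GH, and 15 higher and 17 lower with GH, where 44.8% and 43.0% of all genes were called. The receptor gene Pdgfra (3.80 ± 0.12 SE) and the lymphatic growth factor gene Vegfd (1.99 ± 0.10 SE) were higher, and the VEGF receptor gene Flt1 (-2.19 ± 0.09 SE) and the Notch ligand gene Jag1 (-2.28 ± 0.12 SE) were lower without GH. GH raised 4 and lowered 1 in control cells, and raised 6 and lowered 3 in null cells, where 2.2% and 10.1% of all genes were called. Of 14 other genes with a fibrinogen-like domain, 3 were higher and 2 lower without GH, comparing null with control cells, and 3 higher and 3 lower with GH, where 44.8% and 43.0% of all genes were called. Tnc (-3.21 ± 0.15 SE), which encodes the matrix protein tenascin-C, was lower and Mfap4 (2.09 ± 0.11 SE) higher. Of the 19 STAT5 and GH feedback genes, GH raised 5 and lowered 2 in control cells and raised 6 and lowered 1 in null cells, where 2.2% and 10.1% of all genes were called.

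**Figure D4:**
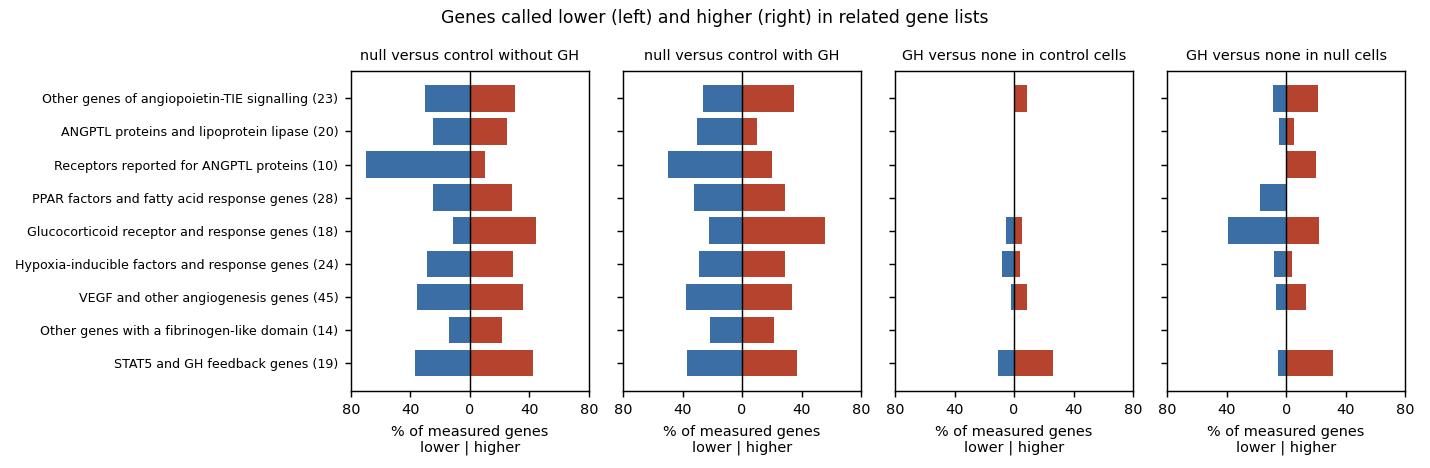
Share of measured genes (x axis, percent) called lower (left, blue) and higher (right, red) in 9 gene lists related to the family (y axis, number measured in brackets), in 4 comparisons. Binding partners reported for ANGPTL proteins have 7 of 10 lower in null cells without GH, and PPAR genes have 5 of 28 lower with GH in null cells and none higher.

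Other cell types were checked by the same count, against 44.8% of all genes called without GH and 43.0% with GH. Of 16 endothelial markers 4 were higher and 4 lower in null cells in each GH state, with Flt1 and Eng (-1.07 ± 0.11 SE without GH) among those lower. Of 12 pericyte markers 1 was higher and 4 lower without GH, and 4 were lower with GH. Of 10 adipocyte markers 3 were higher and 2 lower without GH, and 3 higher and 3 lower with GH. Tendon and stromal markers had 6 of 12 higher and 2 lower without GH, and 5 higher and 2 lower with GH. Among these Ogn (2.34 ± 0.12 SE) and Mkx (2.28 ± 0.11 SE) were higher without GH. Fibroblast markers had 7 of 16 higher and 3 lower without GH, and 7 higher and 2 lower with GH.

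Likeness of pattern was measured as the root mean square difference between log2 profiles over the 8 arrays, each centred on its own mean, for the 4 members that ranged over at least 1 log2 unit. Nearest to Angptl1 were Agtr2, the angiotensin type 2 receptor gene (0.29), 2610528A11Rik (0.50) and the ferritin receptor gene Scara5 (0.50). Agtr2 (4.83 and 5.08 without and with GH), 2610528A11Rik (5.18 and 4.95) and Scara5 (5.77 and 5.43) were dim in control cells, as Angptl1 was. Their likeness values therefore rest in part on levels not set apart from background. Nearest to Angptl4 were the interferon response gene Ifit1 (0.22), the ubiquitin ligase gene Mid1 (0.33) and the semaphorin receptor gene Plxna2 (0.38). Ifit1 stood at 6.20 and 7.40 in control cells without and with GH and at 8.21 and 9.58 in null cells, while Mid1 stood at 6.75 and 6.76 in control and 8.39 and 9.98 in null cells. Nearest to Angpt2 were Ccdc18 (0.049), the glutaryl-CoA dehydrogenase gene Gcdh (0.055) and Tmem241 (0.073). Of these Ccdc18 was dim in every group (group means 4.79 to 5.96). Nearest to Angpt1 were Synpo2 (0.083), the fibroblast growth factor gene Fgf7 (0.083) and the kinase gene Stk35 (0.087). The profiles share the same 8 arrays and are dominated by genotype, so these values describe shape and size alone.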

How the data were processed

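The authors deposited log2 expression values made by robust multi-array average (RMA) in Partek 6.10.0511, per the submitters' processing notes. No header or label used here records its settings. RMA equalises the arrays' distributions, and array medians lay between 6.89 and 6.96. Of 45101 probe sets, 64 controls were left out. The platform annotation gave 1 gene for 34945 of the other 45037, several for 932 and none for 9160. Symbols of 34741 were updated by Entrez identifier through the gene table of GRCm38.p6, and 204 kept the annotated name.

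Groups and replicate numbers came from the array titles. For 1 null array without GH the source label carries another number than the title.

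The model gave each of the 4 groups its own mean over the 8 arrays and was fitted by limma 3.58.1 in R 4.3.3, with 4 residual and 7.46 prior degrees of freedom. A probe set was called at a Benjamini-Hochberg adjusted p under 0.05 over all 45037. The number of arrays limits the precision (median residual SD 0.104). The procedure was tested on simulated data. For gene lists the probe set with the highest mean over all arrays stood for a gene, and members were left out. Named were all members, Stat5a and Stat5b, from each list at most 4 genes with the lowest p in the comparison described, and the 3 genes nearest in pattern to each member ranging over at least 1 log2 unit. Angpt4, Tie1, Angptl8, Pecam1, Vwf, Cdh5, Kdr, Jak2 and Myc, and the GH values of Lpl, fall outside this rule and were chosen after their values were seen. Angptl8, which has no fibrinogen-like domain, was taken out of that list after its values were seen. Members and lists were chosen with earlier results of these data known.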

Additional observations from a re-analysis of the deposited data

Results flagged for a closer look

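The GH effect on Angptl4 (1417130_s_at) differed between the genotypes by 0.80 on the log2 scale, larger in null cells, by the interaction test of the fit over all probe sets (limma adjusted p = 0.00387). Both arrays of each group lay on the same side: 9.28 and 9.24 against 8.35 and 8.31 in control cells, and 11.97 and 12.09 against 10.29 and 10.31 in null cells. Macrophage markers lay at a mean of 10.43 to 10.71 on the control and 6.53 to 6.66 on the null arrays, and their part in this difference was not tested.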

How the results depend on the processing

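Each member's test was refitted in up to 15 ways, 762 refits in all. Of these 732 kept their side of the threshold, 18 lost the call and 12 gained one. No difference called in the main fit or the refit changed direction, while some small uncalled differences changed sign. Leaving out 1 array gave 3 to 6 called of 9 member probe sets for genotype without GH, 6 to 8 for genotype with GH, 1 of 12 for GH in control cells, 1 to 4 of 12 for GH in null cells and 1 of 12 for the interaction. Over all probe sets it gave 14596 to 17049, 13314 to 17413, 490 to 699, 2366 to 5345 and 1235 to 2244 calls, against 17383, 16797, 807, 4877 and 2469. Leaving out any of the 4 null arrays moved the counts over all probe sets of the interaction and of GH in null cells by more than 1.5 times, and leaving out control replicate 2 with GH did so for GH in control cells. The 3 member calls for genotype came without null replicate 3 without GH, and the 1 for GH in null cells without null replicate 2, with or without GH. Calls for 1 probe set per gene numbered 8640, 8247, 476, 2130 and 938 in the same order, since fewer features were tested. Fitting only the 2 groups compared gave 448 calls for GH in control cells. A prior that follows the mean level, or leaving out dim probe sets, gave 2 member calls for the interaction, the second being Angpt2; the cause was not tested.

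The replicate numbers of the titles showed no pairing of the arrays: the deviations of same-numbered arrays correlated between -0.194 and 0.064 over the 6 pairs of groups. For 1 null array without GH the source label carries another number, so the numbering of that group is uncertain here and in the block fit below. With the replicate number as a block, 5 of 9 and 8 of 9 members were called for genotype without and with GH, 1, 3 and 1 of 12 for the other comparisons, and 16776, 16192, 711, 4284 and 2100 probe sets in all. The member call lost was that of Angpt1 1439066_at without GH (limma adjusted p = 0.0593).

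Averaging all probe sets of a gene, dim ones included, in place of the brightest moved these differences by more than limma's SE of the difference. In the order of the comparisons, Angpt2 went to 0.74, 0.39 and, for GH in null cells and the interaction, -0.32 and -0.35. Angptl4 went to 1.01, 1.58, 0.40, 0.97 and 0.58. Angpt1 went to 0.052 for GH in control and 0.45 for GH in null cells. With the first quartile of all probe sets as the dim level, 10 of the 48 member group means were dim in place of 19. The dim levels themselves were not set apart from background, since no detection call came with the values.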
